A study of Mus musculus with 2 samples.

Results

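Among 3402 mouse bone marrow cells, 98 cells carried transcripts of the granule proteins that mark neutrophil and basophil progenitors. They were chosen by a count rule: at least 3 unique molecular identifiers (UMIs, each standing for 1 captured transcript) over Mpo, Elane, Ctsg, Prtn3, Ms4a3, Mcpt8 and Prss34, and under 20 UMIs over the late neutrophil genes S100a8, S100a9, Camp, Ngp and Ltf. The 98 member cells made 2.88% of kept cells (95% interval 2.34 to 3.50%), and 2530 kept cells with 0 UMIs of the 7 granule genes served for comparison. Barcodes were kept as cells from 500 UMIs upward if mitochondrially encoded transcripts made no more than 20% of them. Since measured counts chose the members, the values of the 12 rule genes are a description of the choice and not a finding.

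The study profiled rare GFP+ bone marrow cells of Mds1-GFP/+ Flt3-Cre mice, sorted as DAPI-GFP+ with no other marker, after depletion of cells with B220, Gr1, Ter119, CD4 or CD8. They were mixed with SLAM long-term hematopoietic stem cells (LT-HSCs) of wild-type mice, sorted as DAPI-Lin-cKit+Sca+CD48-CD150+, to secure library quality. The mixture was encapsulated on the inDrops droplet platform and read as 2 aliquots. Both come from the same pool, which makes them technical repeats (n = 1). The labels give neither age nor sex of the mice, nor which sort a cell came from, and state 46 GFP cells after the authors' processing. The Cre is driven by Flt3, a gene of multipotent progenitors, and the GFP cassette lies between loxP sites at Mds1, the upstream part of the Mecom locus. The stem cell gate asks for several surface markers and the other gate for GFP alone, and the sort from which member cells came was not tested.

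Neutrophils and basophils arise in the marrow from myeloid progenitors that fill their granules in stages. Mpo (myeloperoxidase) and the serine proteases Elane (neutrophil elastase), Prtn3 (proteinase 3) and Ctsg (cathepsin G) are made early, in the promyelocyte, as the primary granules form, and are switched off before the late granule proteins appear. Basophil progenitors instead express the proteases Mcpt8 and Prss34, with GATA2 among the factors that maintain them, while C/EBPα with PU.1 directs the neutrophil and monocyte side. Ms4a3 is a membrane protein of granulocyte and monocyte progenitors, and F13a1 (coagulation factor XIII A) marks the monocyte side.

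Elane and Prtn3 are neighbours on chromosome 10 of GRCm38, at 79886247-79888215 and 79874476-79883174 on the + strand. Mcpt8 and Ctsg lie on the - strand of chromosome 14, at 56082166-56085273 and 56099881-56102574, and Prss34 on chromosome 17 at 25298394-25300165, + strand. The 250 bases before the RefSeq start of 4 of these genes (GRCm38.p6) are shown: Prss34 and Mcpt8 define the basophil side below, Elane with Mpo the neutrophil side, and Prtn3 is the transcript by which most of the cells were chosen. Capitals mark the letters GATAA (GATA factors), GAGGAA (PU.1) and TGTGGT (RUNX factors) on either strand; no marked run overlaps another.
Prss34 (chr17:25298144-25298393, + strand): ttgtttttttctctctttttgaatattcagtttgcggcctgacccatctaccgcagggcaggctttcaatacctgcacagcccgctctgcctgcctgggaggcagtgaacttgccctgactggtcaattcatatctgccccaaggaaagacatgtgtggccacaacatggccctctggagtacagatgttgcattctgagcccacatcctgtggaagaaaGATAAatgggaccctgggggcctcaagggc
Mcpt8 (chr14:56085198-56085447, - strand): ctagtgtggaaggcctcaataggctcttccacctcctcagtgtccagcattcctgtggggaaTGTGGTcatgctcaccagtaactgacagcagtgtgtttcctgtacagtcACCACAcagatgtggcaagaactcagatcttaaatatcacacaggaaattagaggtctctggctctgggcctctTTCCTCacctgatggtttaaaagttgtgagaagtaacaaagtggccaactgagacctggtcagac
Elane (chr10:79886062-79886311, + strand): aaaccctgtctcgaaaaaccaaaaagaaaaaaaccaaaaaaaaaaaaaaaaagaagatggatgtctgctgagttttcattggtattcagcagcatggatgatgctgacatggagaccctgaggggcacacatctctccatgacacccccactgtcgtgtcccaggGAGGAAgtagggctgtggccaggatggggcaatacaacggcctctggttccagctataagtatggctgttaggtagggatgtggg
Prtn3 (chr10:79879417-79879666, + strand): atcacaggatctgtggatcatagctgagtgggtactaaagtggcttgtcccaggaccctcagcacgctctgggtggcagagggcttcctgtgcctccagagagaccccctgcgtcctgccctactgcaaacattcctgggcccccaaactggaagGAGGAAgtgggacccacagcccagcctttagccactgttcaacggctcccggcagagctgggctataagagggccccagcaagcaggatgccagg
The starts are those of RefSeq and differ from the GENCODE bounds given for Elane, Prtn3 and Mcpt8. The GAGGAA letters lay 85 bases before the start of Elane, 95 before that of Prtn3 and 65 before that of Mcpt8. Ctsg and Mpo also held them, and Ms4a3 and Prss34 did not. GATAA was in the Prss34 window alone among the 7 genes, 30 bases before the start, and TGTGGT was in those of Mcpt8 and Ctsg. Of 27025 promoter windows of the same length, 23.1% held GAGGAA, 23.0% GATAA and 14.2% TGTGGT, so a match is common and describes only the letters.

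The kept cells of aliquot 1 carried 1640734 UMIs and those of aliquot 2 carried 4027333. Member cells were unevenly divided between the aliquots. Aliquot 2 held 83 of its 1828 kept cells (4.54%, 3.63 to 5.60%), and aliquot 1 held 15 of 1574 (0.953%, 0.534 to 1.57%). Aliquot 2 was read more deeply, with a median of 2071.5 UMIs per kept cell against 946.5 in aliquot 1. A rule of at least 3 UMIs admits more cells at greater depth, but depth was not tested as the cause of the uneven division. After every cell was thinned to 500 UMIs, 23 cells of both aliquots together met the rule, 0.676% of kept cells. Member cells had a median of 2226 UMIs and cells with 0 of the 7 genes 1275, with 4.74% and 5.02% mitochondrially encoded UMIs at the median. Barcodes found in both aliquots numbered 55 among kept cells. Of the members of aliquot 2, 3 had a barcode also kept in aliquot 1, and none was a member in both. Scrublet marked 1 member as a doublet.

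The rule took in cells of very different content, as the plot of granule UMIs by cell shows. Of the 98 cells, 16 had 32 to 257 UMIs of the 7 genes, 1 had 11, and no cell had 12 to 31. Another 79 had 3 to 5. Just inside the rule lay 56 cells with 3 UMIs, and just outside it 157 cells with 2 and 607 with 1. On the other bound, the member richest in late granule transcripts had 15 UMIs of those 5 genes, while the 5 cells turned away by that bound had 78 or more.

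**Figure D1:**
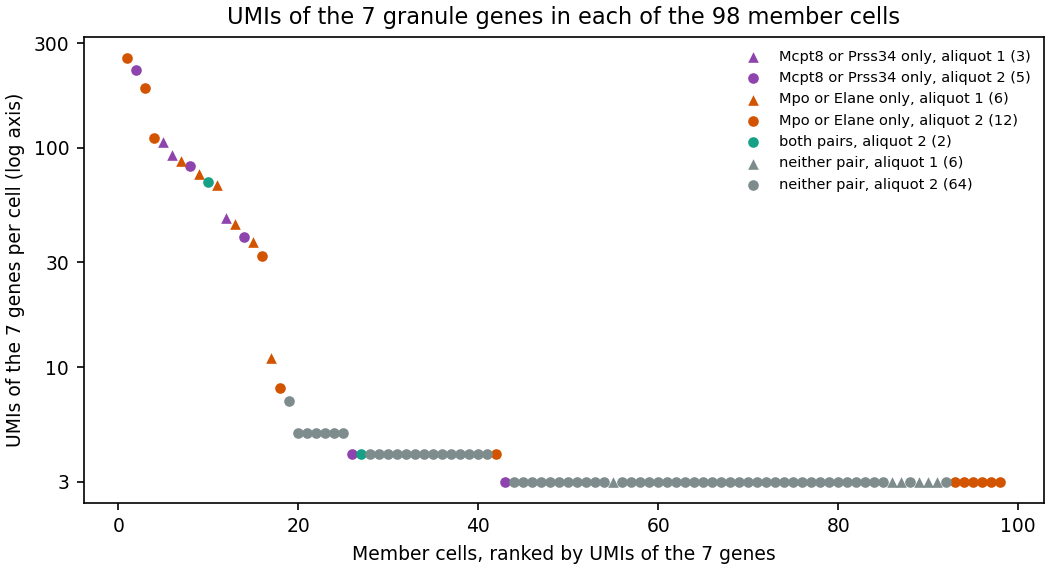
UMIs of the 7 granule genes (log axis) in each of the 98 member cells, ranked; each point is 1 cell, colour is the class of granule genes found and shape the aliquot. 17 cells have at least 10 UMIs, and the long shelf at 3 to 5 UMIs is mostly cells of aliquot 2 with neither Mcpt8 or Prss34 nor Mpo or Elane.

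By the proteases found, 8 members were basophil-side, with Mcpt8 or Prss34 and no Mpo or Elane (8.16%, 3.59 to 15.5%). 18 were neutrophil-side, with Mpo or Elane and no Mcpt8 or Prss34 (18.4%, 11.3 to 27.5%). 2 cells held both pairs and 70 held neither (71.4%, 61.4 to 80.1%). Of those 70, 69 had Prtn3 as their only granule transcript and 1 had only Ctsg. The label of granulocyte and basophil progenitors is therefore carried by a minority: 29 of 98 members had a UMI of any of its markers Prss34, Mcpt8, Ctsg, Elane, Mpo and F13a1, and 16 had at least 3 of these 6. The 17 cells with at least 10 granule UMIs were 6 basophil-side, 10 neutrophil-side and 1 with both, and 9 of them came from aliquot 1. For the rest the name rests on 3 to 8 transcripts, so they are called here by the genes found in them.

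The 6 basophil-side cells with strong granule signal were alike and almost pure in their proteases. Prss34, a tryptase-like basophil protease, had 207, 92, 80, 79, 38 and 33 UMIs in them, and Mcpt8 14, 9, 6, 4, 10 and 5 in the same order. All 6 held both, with 11.0 Prss34 UMIs for each Mcpt8 UMI, and none held Mpo, Elane or Prtn3. The 7 genes made 3.01 to 11.4% of all UMIs in a cell, median 6.94%. Ctsg was the protease they shared with the neutrophil side: 4 of the 6 held it, with 17 UMIs in all and at most 7 in a cell. The other 2 basophil-side members had 1 Prss34 UMI each beside 2 or 3 Prtn3 UMIs, and no Mcpt8. Both aliquots gave such strong cells, 3 each.

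All 10 strong neutrophil-side cells held Mpo, Prtn3 and Ctsg, which the rule used, in varied proportion, and 9 held Elane. Outside the rule, Gfi1 was found in 4 of them and Cebpe in 3. The cell with 32 granule UMIs held 20 of their 32 Lyz2 and 9 of their 15 F13a1 UMIs. Elane led, with 331 UMIs and a median of 25.5 per cell, from 0 to 92. Prtn3 followed with 209 (4 to 63 per cell), then Ctsg with 180 (1 to 52) and Mpo with 155 (1 to 49), and Ms4a3 had 37 UMIs in 7 of the cells. Per Mpo UMI there were 2.14 Elane UMIs, but the single cells differed widely: the richest, with 257 granule UMIs, had 92 Elane and 49 Mpo, while a cell with 37 had 22 Elane and 1 Mpo. The cell with 11 granule UMIs had 6 Mpo and no Elane. All 11 members with Elane also held Prtn3, and 10 of them Mpo. The remaining 8 neutrophil-side members had 14 Mpo, 1 Elane and 14 Prtn3 UMIs in all, and qualify for the class mostly by 1 to 3 Mpo UMIs.

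**Figure D2:**
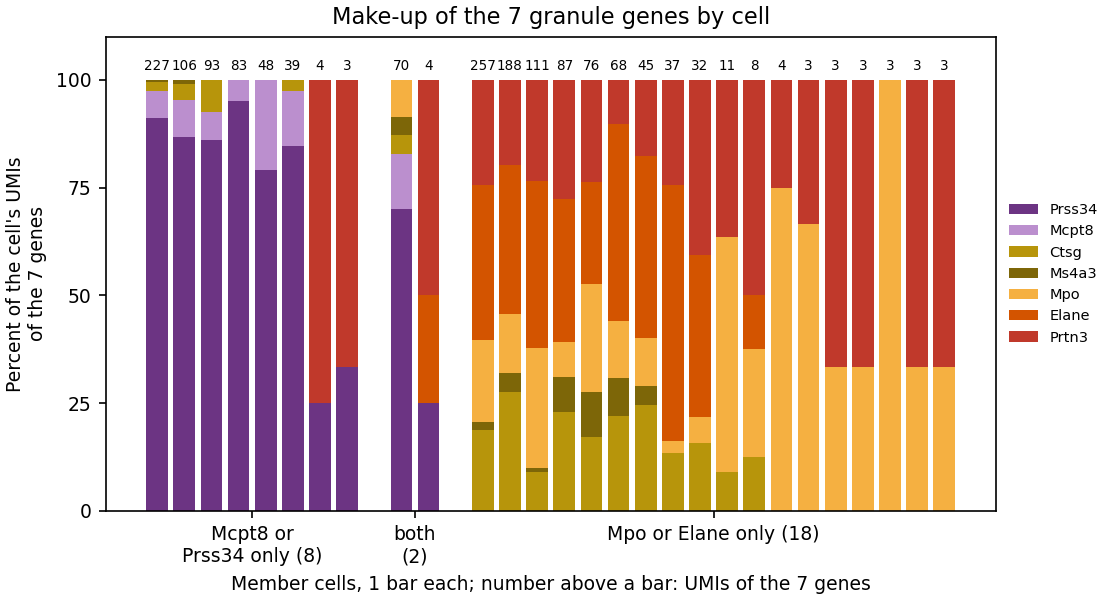
Percent of each cell's granule UMIs that came from each of the 7 genes, 1 bar per cell, with the cell's granule UMIs above it; the basophil-side cells stand left, the 2 cells with both pairs in the middle and the 18 neutrophil-side cells right. Prss34 fills 6 of the basophil-side bars, whereas Elane, Prtn3, Ctsg and Mpo share the strong neutrophil-side bars.

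Cells with both kinds of protease were rare. One held 49 Prss34, 9 Mcpt8, 6 Mpo, 3 Ctsg and 3 Ms4a3 UMIs, together with 12 UMIs of Ms4a2, 10 of Cpa3 and 3 of Cebpa, and no Gata2. The other held 1 Prss34, 1 Elane and 2 Prtn3 UMIs with 67 of the myeloid lysozyme Lyz2 and 7 of F13a1. A droplet with more than 1 cell and a cell with both programs cannot be told apart from these counts, and Scrublet marked a single member in all. F13a1 occurred in 6 members with 26 UMIs: 4 neutrophil-side cells, this cell, and the cell with only Ctsg.

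Beyond the proteases, the basophil-side cells carried basophil and mast cell genes at a higher summed level than the neutrophil-side cells. Levels (CPM) are UMIs of a gene after scaling the cell set to a total of 1000000 UMIs, and a ratio is that of the CPM of 2 sets with an exact 95% interval for counting error. A gene is called at a ratio of at least 2, or at most 0.5, provided that the smaller set holds, or would hold at the other's level, 10 or more UMIs of it. In basophil-side against neutrophil-side members, 60 of 237 genes (25.3%) were at least 2-fold higher and 33 (13.9%) at most 0.5-fold. Of the 60 higher genes, 2 would have passed the minimum by their level in neutrophil-side cells, and the others passed only because they were high in the basophil-side cells, so the count describes the set and is no measure of how many genes differ. The listed basophil and mast cell genes without the 7 summed to 22320 CPM (19760 to 25110) in basophil-side cells and 5401 CPM in neutrophil-side cells, against 3767 in members with neither pair and 3794 in cells with 0 of the 7 genes.

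The receptor and mediator genes of basophils named here were higher in the basophil-side cells. Of the 34 listed basophil and mast cell genes, 10 met the minimum, and 9 of them were at least 2-fold higher. By its level in neutrophil-side cells alone 1 of the list would have met it, and that gene was not 2-fold higher. The values below are therefore a description of these cells. Ms4a2, the beta chain of the high-affinity IgE receptor, had 15 UMIs in basophil-side and 2 in neutrophil-side cells, 40.5 times (9.43 to 365). Its alpha chain gene Fcer1a had 9 UMIs against 0, or 16.2-fold with the count of 0 taken as 3 over the class. Such a bound leaves out the counting error of the other count and can exceed the lower end of the exact interval. Fcer1g, the signalling chain it shares with IgG receptors, was at 5.16 times (2.70 to 9.84). Cpa3, a granule carboxypeptidase of mast cells and basophils, had 19 UMIs against 4 (25.7 times, 8.53 to 104), and all 4 lay in 1 weak neutrophil-side cell. Hdc, which makes histamine, was at 9.01 times (2.97 to 30.2), with 10 UMIs against 6. Cd200r3, an activating receptor of basophils, had 10 UMIs against 0, and the chemokine genes Ccl3 and Ccl4 had 25 and 11 against 0. With 0 taken as 3 these are 18, 45 and 19.8-fold, and the exact interval for Ccl3 starts at 34.0-fold. Of the Ccl3 UMIs, 12 came from 1 cell, and of the Ccl4 UMIs, 8 came from 1 cell. Without the richest cell of each the bounds were 27.3 and 6.24-fold. The steroid enzyme gene Cyp11a1 had 7 UMIs, in 5 of 8 basophil-side cells, and 0 in the 18 neutrophil-side cells and in the 70 with neither pair.

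Gata2, the transcription factor gene, was found in all 6 strong basophil-side cells with 4, 2, 3, 11, 9 and 4 UMIs, and in none of the 10 strong neutrophil-side cells. Over the whole classes its level was 3073 CPM in basophil-side and 179.5 CPM in neutrophil-side cells, 17.1 times (8.76 to 36.0). Against cells with 0 of the 7 genes, at 428.3 CPM, Gata2 was at 7.18 times (5.06 to 9.89) in basophil-side and 0.419 times in neutrophil-side cells. Cebpa, needed to form granulocyte and monocyte progenitors, was on both sides: 4 of 6 strong basophil-side cells held 7 UMIs and 7 of 10 strong neutrophil-side cells held 8. Its level was 566.1 CPM in basophil-side and 134.6 CPM in neutrophil-side cells, and 4.556 CPM in cells with 0 of the 7 genes. The granulocyte factors Gfi1 and Cebpe had 7 and 3 UMIs in neutrophil-side and 0 in basophil-side cells, and at this depth a count of 0 in 12366 UMIs allows up to 242.6 CPM. Spi1, which encodes PU.1, had 0 UMIs in basophil-side and 12 in neutrophil-side cells. The same limit holds for its 0, so these counts do not compare levels.

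Of the cytokine receptors, Csf2rb, the chain shared by the receptors for interleukin-3 and GM-CSF, had 10 UMIs in basophil-side and 4 in neutrophil-side cells (13.5 times, 3.90 to 59.0); all 10 came from aliquot 2. Csf3r, the G-CSF receptor, had 0 UMIs against 9, and Csf1r, the M-CSF receptor, 0 against 9. Ifngr1, an interferon-gamma receptor chain, had 0 against 43, at most 0.377 times. Kit had 6 UMIs in 2 of 8 basophil-side cells and 22 in 11 of 18 neutrophil-side cells. Of the 6, 5 lay in 1 weak cell, and the strong basophil-side cells held 1. The classes held 12366 and 66843 UMIs of all genes, so these raw counts of Csf3r, Csf1r and Kit do not compare levels. Among ranked genes outside the lists' core, the leukocyte integrin gene Itgb2 was at 27.0 times (9.05 to 109), the immediate early gene Jun at 7.84 (4.28 to 14.6) and the calmodulin gene Calm2 at 4.71. Cd47, at 2.46 times, was at 1.41 without its richest cell. Srgn, the proteoglycan core of granules, was level between the classes at 0.967 times (0.703 to 1.31).

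Whether more genes were higher or lower on the basophil side depended on the gene minimum: with at least 20 UMIs per gene, 8 were at least 2-fold higher and 11 at most 0.5-fold. Ran, a nuclear transport GTPase, was at 0.352 times (0.149 to 0.715), Plac8 at 0.429 (0.281 to 0.631), and the endoplasmic reticulum chaperone genes Hspa5 and Calr at 0.440 (0.206 to 0.836) and 0.390 (0.153 to 0.835). The histone gene H2afy was at 0.408 times. Rps18, Rpl31, Rps21 and Rps20 were at 0.377 to 0.431 times and the ribosomal pseudogenes Gm7536 and Rps12-ps3 at 0.360 and 0.366. These values are uncertain because near-identical copies share reads. Of the 9 Rps20 UMIs in basophil-side cells, 8 came from 1 cell. In aliquot 1 these cells had 0 UMIs of Rps21 and of Rps12-ps3. Mcm6, a helicase subunit of DNA replication, had 1 UMI in basophil-side and 57 in neutrophil-side cells, 0.0948 times (0.00236 to 0.550). In aliquot 1 alone it had 0 UMIs against 6, too few to give a direction. With only the cells of at least 10 granule UMIs, 43 of 147 genes (29.3%) were at least 2-fold higher and 37 (25.2%) at most 0.5-fold. Of these genes, 93 would have passed the minimum by their level in the strong neutrophil-side cells alone. Among those 93, 2 were at least 2-fold higher and 37 at most 0.5-fold. Between the strong cells Gata2 was at least 52.7-fold higher on the basophil side (33 UMIs against 0) and Cpa3 at least 30.3-fold (19 against 0). The counts rest on both aliquots together: aliquot 2 alone gave 37 higher genes and aliquot 1 alone gave 15, with 22 and 10 at most 0.5-fold.

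**Figure D3:**
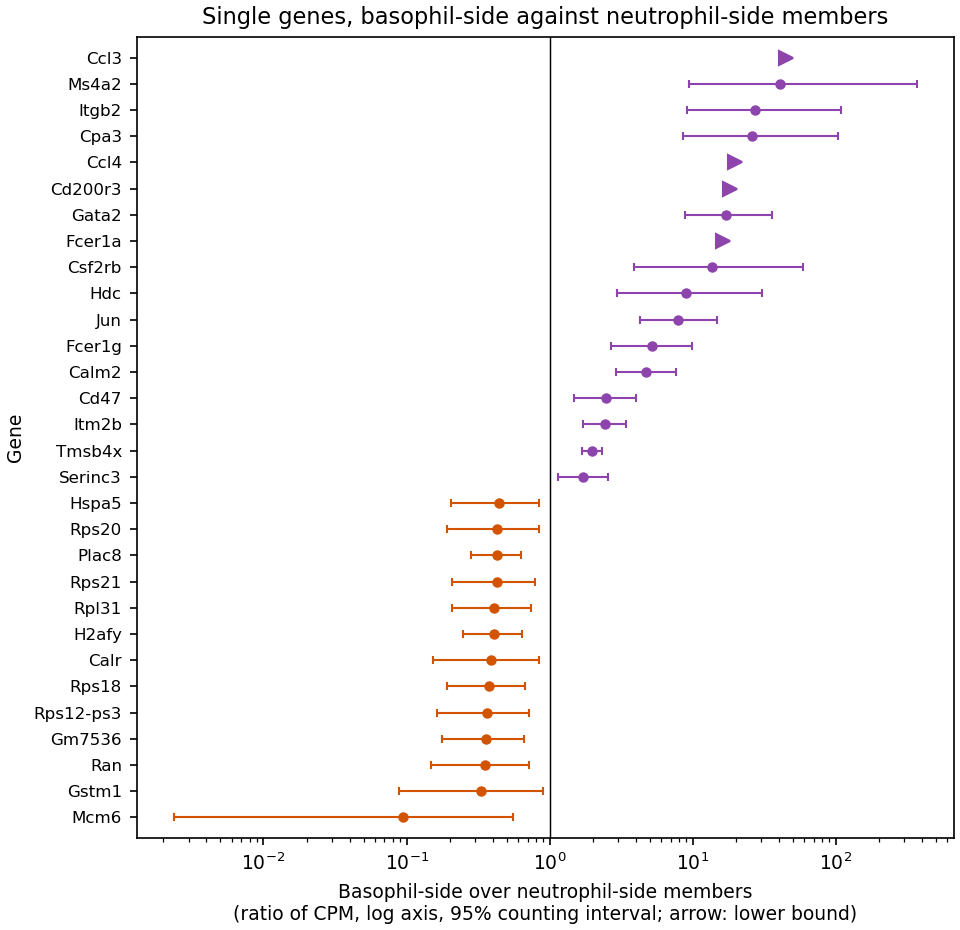
Ratio of CPM of basophil-side (8 cells) to neutrophil-side members (18 cells) for named genes, log axis, with bars for the 95% counting interval and arrowheads for lower bounds where the neutrophil-side count was 0. Ms4a2, Cpa3, Gata2 and the other basophil genes lie right of 1, and Plac8, Hspa5 and the ribosomal genes left of it.

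Set against cells with 0 of the 7 genes, the neutrophil-side members had higher sums of primary granule and monocyte genes and a lower sum of LT-HSC genes. The class pools the 10 strong cells with 8 weak ones, which held 25822 of its 66843 UMIs. Here 293 of 1613 genes (18.2%) were at least 2-fold higher and 164 (10.2%) at most 0.5-fold. Of these genes, 1126 would have passed the minimum by their level in cells with 0 of the 7 alone, and 58 of those were at least 2-fold higher and 164 at most 0.5-fold. The primary granule and neutrophil progenitor genes other than the 7 summed to 13200 CPM (12340 to 14100) in neutrophil-side cells and 7925 CPM in basophil-side cells, against 3615 in cells with 0 of the 7. Plac8, abundant in myeloid and multipotent progenitors, was at 5281 CPM in neutrophil-side cells against 270.6, a ratio of 19.5 (17.3 to 22.0). Clec12a, an inhibitory lectin receptor of myeloid cells, was at 86.9 times (45.1 to 172), the haptoglobin gene Hp at 19.3 (10.5 to 34.0) and the ficolin gene Fcnb at 28.4 (13 to 58.6). Gstm1 was at 3.96 times (3.03 to 5.09) and Serpinb1a, an inhibitor of granule proteases, at 4.74. Of the primary granule list, 5 genes would have passed the minimum by their level in cells with 0 of the 7 alone. Of those, 4 were above 1 and 2 at least 2-fold higher.

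The listed monocyte and dendritic genes summed to 2962 CPM in neutrophil-side, 2183 in basophil-side and 869 in neither-pair cells, against 868 in cells with 0 of the 7. In neutrophil-side cells Ly6c2 was at 66.5 times (42.5 to 105), Irf8, a factor of monocyte and dendritic fate, at 20.4 (8.86 to 43.0), Klf4 at 10.2 and F13a1 at 15 (7.92 to 26.8), or 6.45 without its richest cell. Of the monocyte and dendritic list, 1 gene would have passed the minimum by its level in cells with 0 of the 7 alone. That gene was not 2-fold higher, and the genes just named passed only because they were high in neutrophil-side cells. Transcription factor genes lay on both sides of 1. Cebpb was at 4.84 times (3.41 to 6.68) and Spi1 at 2.76 (1.41 to 4.91), whereas Lmo2, a cofactor of stem and erythroid cells, was at 0.159. Over genes that pass the minimum by their level in cells with 0 of the 7 alone, the median log2 ratio was -0.11, and 4 of the 7 lists with at least 7 such genes lay to one side of 1. All 13 such endoplasmic reticulum folding and secretion genes were above 1 and 10 at least 2-fold higher, median 1.20, with Hspa5 at 3.97 times (3.28 to 4.77), Manf at 3.34, P4hb at 2.81 and Calr at 2.30. All 9 such S phase genes were above 1 and 3 at least 2-fold higher, median 0.87, with Dut at 2.11 times, Pcna at 2.00 and Mcm7 at 1.83. All 11 such LT-HSC genes were below 1 and 9 at most 0.5-fold, median -1.89. All 7 such immediate early genes, which respond to cell stimulation and handling, were below 1 and 3 at most 0.5-fold, median -0.71, with Jun at 0.415 times (0.253 to 0.642).

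Hlf, a stem cell transcription factor gene, was at 0.0847 times (0.0231 to 0.217), Mllt3 at 0.170 and Txnip at 0.323 (0.222 to 0.454). Mecom, Fgd5, Slamf1 and Hoxb5 had 0 UMIs in neutrophil-side cells. Kit was at 0.476 times (0.298 to 0.722). Summed, the LT-HSC genes were at 1661 CPM (1366 to 2000) in neutrophil-side cells, 5256 (4057 to 6700) in basophil-side cells and 7588 (7174 to 8019) in members with neither pair, against 6615 in cells with 0 of the 7. Of the 30 listed LT-HSC genes, 2 passed the gene minimum in basophil-side cells. Among them Ifitm1, which the basophil list also holds, was at least 2-fold higher than in cells with 0 of the 7. Mecom was found in 0% of the 8 basophil-side cells, and Hlf and Procr in 12.5% each. The S phase genes were at 5939 CPM (5369 to 6553) in neutrophil-side and 1375 (801 to 2201) in basophil-side cells, against 3337. In the 10 strong neutrophil-side cells 266 of 929 genes (28.6%) were at least 2-fold higher and 133 (14.3%) at most 0.5-fold. The higher count includes genes that passed the minimum only through their level in these cells. There Hspa5 was at 4.78 times (3.83 to 5.91) and Plac8 at 26.5, while Hlf had 0 UMIs. Mcm6 was at 0.913 times (0.571 to 1.39) in these cells and at 1.45 over the class.

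**Figure D4:**
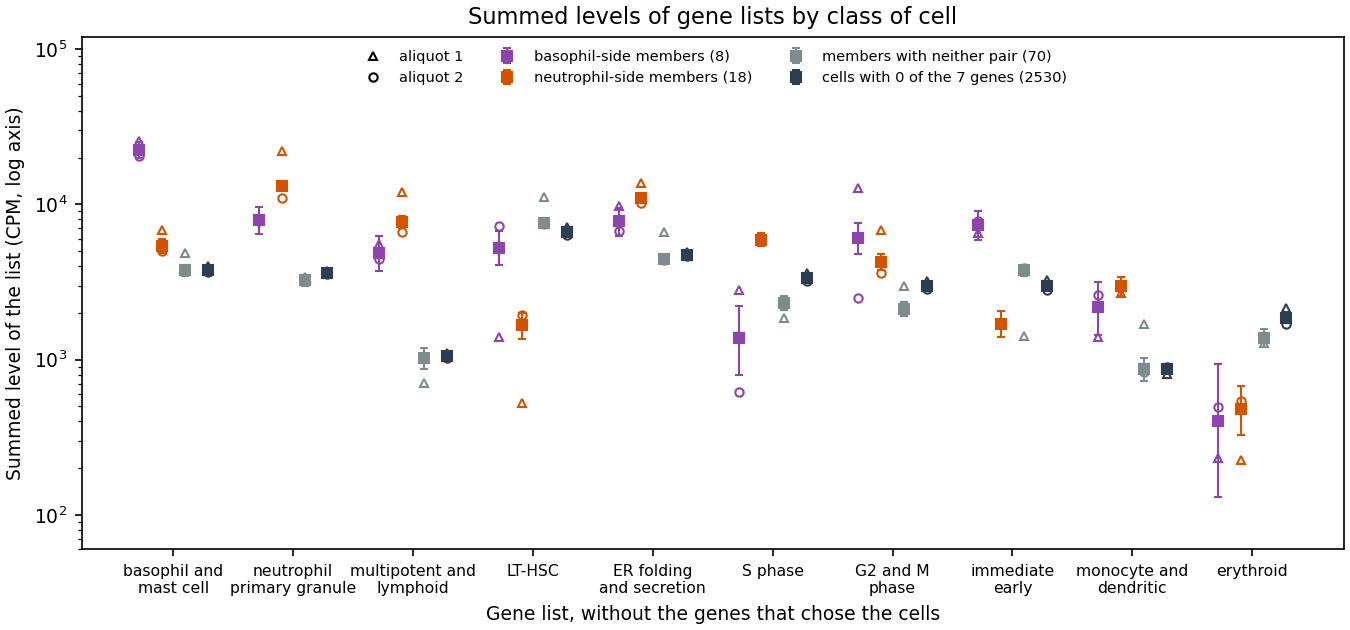
Summed level of 10 gene lists (CPM, log axis) in basophil-side, neutrophil-side and neither-pair members and in cells with 0 of the 7 genes; squares are both aliquots with 95% counting intervals, open triangles and circles the single aliquots. The rule genes are left out of the lists. Neutrophil-side cells lie lowest for LT-HSC genes and highest for folding and S phase genes, and members with neither pair lie near the cells with 0 of the 7.

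Basophil-side members against the same cells had 69 of 221 genes (31.2%) at least 2-fold higher and 26 (11.8%) at most 0.5-fold. Of these genes, 140 would have passed the minimum by their level in cells with 0 of the 7 alone. Among those 140, 4 were at least 2-fold higher and 26 at most 0.5-fold, so the 69 mostly describes how genes passed. Ms4a2 was at 1198 times (382 to 4959), Ccl3 at 444 (233 to 863), Hdc at 266, Cpa3 at 135 (74.5 to 235), the IgG receptor gene Fcgr3 at 134 and Fcer1g at 24.2 (14.8 to 37.8). Plac8 was at 8.37 times (5.53 to 12.2) and Tmsb4x at 5.69. The G2 and M phase sum of 6065 CPM in basophil-side cells, against 2971, came from aliquot 1, where it was 12810, and not from aliquot 2, where it was 2478. The erythroid genes summed to 404 CPM in basophil-side, 479 in neutrophil-side and 1388 in neither-pair cells, against 1853 in cells with 0 of the 7, and the T and NK cell genes to 647, 479 and 127 CPM, against 109. In the same 3 classes 15, 13 and 9 of the 17 erythroid genes and 8, 8 and 6 of the 12 T and NK cell genes were at 0, while 28 of the 32 T and NK cell UMIs in neutrophil-side cells were Nkg7, which the primary granule list also holds. Hbb-bt, a beta globin gene, had 20 UMIs in neither-pair cells, 16 of them in 1 cell. The part of such cells in these results was not tested. Cd79a, Ebf1, Cd3e, Ncr1, Cdh5, Klf1, Epor and Hba-a1 had 0 UMIs in the basophil-side, neutrophil-side and neither-pair cells, and so had the eosinophil granule genes Prg2, Prg3 and Epx.

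Members with neither pair, nearly all chosen by Prtn3 alone, had levels of most listed genes near those of cells with 0 of the 7. Against 70 of those cells matched to them in depth, 379 of 4192 genes (9.04%) were at least 2-fold higher and 500 (11.9%) at most 0.5-fold, counts that include much counting error at 165662 UMIs against a set of like size. Against all cells with 0 of the 7 the counts were 190 (4.71%) and 162 (4.01%) of 4035. None of the 6 measured primary granule genes was at least 2-fold higher than in matched cells and 2 were at most 0.5-fold. Of 22 measured LT-HSC genes, 3 were higher and 1 lower, median log2 0.06 against -0.04 over all genes. Hlf was at 1.04 times, Ifitm1 at 1.06, Kit at 1.03 (0.789 to 1.36) and Txnip at 1.28 (1.07 to 1.53). Clec12a, found in 11 of 18 neutrophil-side cells, had 0 UMIs in these 70, Cebpa had 1 and Ly6c2 had 2. Lyz2 had 106 UMIs, 68 of them in the cell with only Ctsg.

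A few genes departed from the matched cells. Plac8 had 20 UMIs in them, 120.7 CPM, against 381.0 CPM in matched cells (0.317 times, 0.181 to 0.531) and 270.6 in all cells with 0 of the 7, with ratios to the whole set of 0.512 in aliquot 1 and 0.449 in aliquot 2. Mecom, the stem cell regulator at whose locus the GFP cassette lies, had 36 UMIs, 217 CPM, against 60.5 CPM in matched cells (3.59 times, 1.75 to 8.12). Against all cells with 0 of the 7, at 133.9 CPM, the Mecom ratio was 1.62 (1.12 to 2.28). It was 1.79 within aliquot 2 but 0.916 within aliquot 1, which holds 6 of the 70 cells. Procr, a surface marker of LT-HSCs, was at 1.52 times the matched cells (0.850 to 2.78). Of 16 S phase genes, 14 were below 1 and 4 at most 0.5-fold, median -0.42.

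Prtn3 itself behaved unlike the other granule genes over the whole pool. It was found in 831 kept cells, whereas Mpo was found in 31, Ctsg in 29, Elane in 22, Ms4a3 in 21, Prss34 in 15 and Mcpt8 in 10. Of the 764 kept cells with 1 or 2 granule UMIs, 725 had Prtn3 only, and those 764 cells held 880 Prtn3 and 7 Elane UMIs. In the strong neutrophil-side cells there were 209 Prtn3 for 331 Elane UMIs, or 0.631 for 1, and over all neutrophil-side cells 0.672. Barcodes under 200 UMIs, too shallow to be read as cells and a gauge of free RNA, had 156 Prtn3 and 31 Elane UMIs, or 5.03 for 1. The Prtn3 level there was 281 CPM (238 to 328), against 252 CPM (239 to 265) over all kept cells and 204 CPM (192 to 216) over the kept cells without the 17 strong members and the 18 rich in late granule genes. Prtn3 was found in 24.4% of kept cells as read, and in 10.9% after thinning to 500 UMIs.

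The Prtn3 level differed between kinds of cell by more than counting error. With the same strong members and late granule cells left out, cells with a UMI of the LT-HSC genes Procr, Fgd5 or Slamf1 had 258 CPM of Prtn3 (231 to 289; 683 cells), and cells without one 189 CPM (176 to 202; 2684 cells). Both aliquots gave that order: aliquot 1 had 266 CPM with such a UMI and 175 without, and aliquot 2 had 256 and 195. Cells with a UMI of the erythroid factors Klf1 or Gata1 had 73.7 CPM (48.6 to 107, 150 cells). Cells without one had 213 CPM (201 to 226, 3217 cells). Their median depths were 2353 and 1370 UMIs, in that order. Splits by Cd34 (206 against 203 CPM) and by Flt3 or Cd48 (174 against 207 CPM) gave overlapping intervals. The 281 CPM of the shallow barcodes was above the level of every one of these sets of kept cells, and its interval overlapped that of the cells with Procr, Fgd5 or Slamf1. S100a9, a late neutrophil gene of the rule, differed from Prtn3 in this comparison. It had 784 CPM (712 to 861) in the shallow barcodes. Over the kept cells without strong members and late granule cells it had 9.3 CPM (7.0 to 12.2), against 204 CPM of Prtn3. Leaving out the cells rich in late granule genes itself lowers S100a9 in that set. Free RNA was not tested as the source of the Prtn3 counts.

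**Figure D5:**
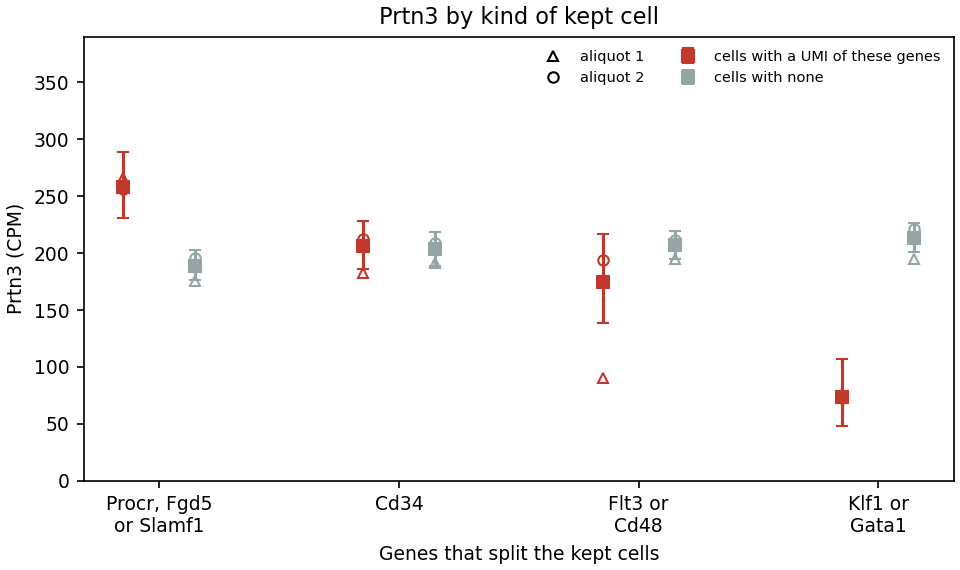
Prtn3 level (CPM) in kept cells with and without a UMI of the named genes, without the 17 strong members and the 18 cells rich in late granule genes; squares are both aliquots with 95% counting intervals, open triangles and circles the aliquots. The level is highest, 258 CPM, in cells with Procr, Fgd5 or Slamf1 and lowest, 73.7 CPM, in cells with Klf1 or Gata1.

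Taken as a whole, the 98 cells were also set against cells with 0 of the 7 genes. The share of tested genes called was smaller than for either class, over a larger set of tested genes. That share depends on a set's UMIs and on which genes pass the minimum, so it does not rank how far the sets differ. Of 5619 genes outside the rule, 269 (4.79%) were at least 2-fold higher and 251 (4.47%) at most 0.5-fold. Against cells with 0 of the 7 matched in depth, 506 of 5715 (8.85%) were at least 2-fold higher and 608 (10.6%) at most 0.5-fold, in a comparison set of like size and so with more counting error. Aliquot 1 alone gave 84 and 44, of 440 genes that passed the minimum there. Among the highest ratios, Ms4a2 (114 times, 40.1 to 447), Hdc (26.2), Ccl3 (21.9) and Cpa3 (11.9) had a higher level in basophil-side than in neutrophil-side cells, and Clec12a (25.9) and Ly6c2 (21.3, 13.9 to 32.8) a lower one. F13a1 (6.94) had 0 UMIs in basophil-side cells. Cebpa (17.5 times, 8.78 to 35.1), Fcgr3 (17.3), Cd53 (6.45), the signalling adaptor gene Tyrobp (6.25) and Plac8 (6.32) also stood high. Ms4a2 came from 6 cells and Cebpa from 14. The lowest ratios were those of Hspb11 (0.320 times, 0.128 to 0.667), Prcp (0.371) and Snx17 (0.374), each with 7 to 13 UMIs in members.

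The GFP reporter was found in 1 of 98 members (1.02%), a cell with neither pair and 3 reporter UMIs. It was found in 49 of the cells with 0 of the 7 genes (1.94%) and in 21 of the cells with 1 or 2 (2.75%). None of the 8 basophil-side or 18 neutrophil-side cells held it, which allows shares of up to 37.5% and 16.7%, so a difference was not detectable at this depth. Among barcodes too shallow to be kept, 16 of 7372 met the granule rule, 11 of them with neither pair, and 1 reached 10 granule UMIs.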

How the data were processed

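Lineage-depleted bone marrow cells were sorted, mixed into 1 pool, encapsulated with inDrops and read as 2 aliquots, per the labels' protocols. The deposited tables hold raw UMI counts per gene and barcode, with no normalization by the authors. Bowtie 1.1.1, SAMtools 1.3.1, RSEM 1.3.0 and GRCm38 are named by the submitters' processing notes, without roles or settings. The division of reads between near-identical genes was not given in the sources used here. Of 28205 features besides the GFP reporter, 26589 had a symbol in the gene table, and 390 of the 398 listed gene names had a feature. Aliquot 1 held 2147 barcodes and 1801787 UMIs, and aliquot 2 held 8662 barcodes and 4726601 UMIs, the barcode numbers the labels state. Kept cells numbered 1574 and 1828.

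Counts were summed over each cell set. Intervals (95%) are exact: Poisson for CPM, conditional binomial for ratios, Clopper-Pearson for shares. They cover counting error only, since cells are not replicates and UMIs of a gene come in bursts. A single pool allows no test, so p-values are not printed. Where a set held 0 UMIs, 3 counts over that set served as its bound. A ratio to such a bound leaves out the counting error of the other set. Depth-matched cells were drawn from the same aliquot by total UMIs. The scripts were tested on simulated data. Scrublet, with an expected doublet rate of 6%, marked 9 (0.572%) and 16 (0.875%) kept cells, which were left in. The work used scanpy 1.11.5, matplotlib 3.10.9, pandas 2.3.3, scipy 1.17.1 and numpy 2.4.6 under Python 3.11.15.

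Members and the 25 gene lists were chosen with earlier results of these data known. Named genes are the 12 rule genes, listed genes whose observed or expected UMIs in members reach 10 (all of the basophil, primary granule, monocyte, transcription factor and receptor lists, otherwise up to 6 per list with most UMIs), fixed cell type markers, and the extreme ratios of genes that had 20 or more UMIs over 5 or more cells and kept 1 direction in both aliquots: 15 and 10 for members, 10 and 10 between the classes. Alternatives covered aliquots, filters, the rule's thresholds, thinning, doublets, the comparison cells and the gene minimum. Counts over genes that pass by the comparison cells' level alone were added after seeing the data. Results for a few genes are not reported here.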

Additional observations from a re-analysis of the deposited data

How the results depend on the processing

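No paired analysis was possible because the series holds 1 group of 2 technical aliquots. The member share of 2.88% ranged from 0.953% to 4.54% between single aliquots, and was 4.03% among cells with at least 1000 UMIs, 0.735% and 0.5% with at least 5 and 10 granule UMIs, and 0.676% after thinning. The basophil-side share of 8.16% ranged from 6.02% to 20%, and was 24%, 35.3% and 30.4% under the last 3 of these. Genes higher in members (269) ranged from 84 to 273 between single aliquots and genes lower (251) from 44 to 219. With depth-matched cells they were 506 and 608, with at least 20 UMIs per gene 81 and 46, with no minimum 10580 and 1121, and with at least 10 granule UMIs genes lower were 166. Between the classes, the 60 higher genes ranged from 15 to 37 and the 33 lower from 10 to 22, and were 8 and 11 with at least 20 UMIs per gene and 6542 and 317 with no minimum. All these settings change the number of cells or genes tested. Other settings kept these counts within 1.5 times.

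Of single genes, the members' log2 ratio differed in sign between single aliquots for Gata1 (-3.49 to 0.12, 1 UMI in members of either aliquot) and Tyms (-1.61 to 0.68), the higher value being that of aliquot 1. Lcn2, Blvrb and Emcn in members, and Mcm6 in basophil-side cells, had 0 UMIs in aliquot 1, which allows either direction there. The log2 ratio of Lcn2 was 2.31 against depth-matched cells and 2.12 against cells without those rich in late granule genes, a setting chosen after seeing the data. The cause was not tested. Also chosen after seeing the data were the counts without members of neither pair (327 higher, 218 lower) and the contrast of strong cells.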
